A study of Mus musculus with 2 samples.

Results

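Nuclei named here resident Mrc1-rich macrophages made up 555 of 665 macrophage nuclei and of 15058 filtered nuclei of visceral adipose tissue. Replicate 1 held 105 of them and replicate 2 held 450. The name follows the marker genes that chose them, and whether a nucleus came from a resident cell was not tested. A nucleus entered the filtered set with more than 500 genes, more than 1000 UMIs (unique molecular identifiers, each standing for 1 captured RNA molecule) and under 15% of UMIs from mitochondrial genes. It counted as a macrophage with at least 3 UMIs summed over Cd68, Cybb, Ms4a7, Mpeg1, Ctss, Msr1, Fcgr1 and Adgre1, under 10 over the adipocyte genes Plin1, Cidec, Pde3b, Acsl1, Dgat2, Pnpla2, Adrb3 and Aqp7, and at most 1 over Upk3b, Msln, Ptprb and Col3a1, which mark mesothelial, endothelial and stromal cells. Members were the macrophages selected on at least 2 UMIs summed over Mrc1, F13a1, Cd163 and Lyve1. The levels of these 24 genes therefore describe the choice. Those that passed the filter on low counts stayed in the fit against the other 110 macrophages and in its p adjustment, but they are not counted among the genes tested and no test of them is given. Left out of the adjustment, an alternative chosen after seeing the data, they changed no call of a gene named or listed here.

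The study profiled fat depots of female C57BL/6J mice by single-nucleus RNA sequencing, and the 2 libraries used here, replicates 1 and 2, come from visceral adipose tissue (VAT) of animals aged 2 months with no treatment named. Libraries of the subcutaneous depot and of older animals are not analysed here. The labels name the cell type as adipocytes and the platform as 10x Genomics, while the protocol describes nuclei of whole tissue and a Singleron GEXSCOPE kit. The files hold many cell types, macrophages among them. The labels give replicate numbers only, while the study describes a pair of mice sampled at each age. P-values rest on the spread between these 2 libraries only, which the test pools over genes. A small p therefore need not mean that a gene's ratio was alike in both libraries. Animal and preparation cannot be told apart in that spread.

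The libraries stand apart in depth and RNA quality. The filtered nuclei held 8466237 UMIs in replicate 1 (2833 nuclei of 7344 called by the authors) and 48068273 in replicate 2 (12225 of 17148). Members held 212340 and 1068436 UMIs, with medians of 1750 and 2185 UMIs and of 955 and 1330 genes in a nucleus. Mitochondrial genes took a median of 8.42% of a member's UMIs in replicate 1 and 1.30% in replicate 2, against 6.20% and 0.621% over all filtered nuclei. Each UMI of a member rested on 5.41 reads in replicate 1 and 2.16 in replicate 2. The libraries shared 85 barcodes among called nuclei and 27 among filtered nuclei, none of them a member in both, and 7 members had a barcode that was also called in the other library. Levels below are given for each library, in CPM, the UMIs of a gene or list for every 1000000 UMIs in that set of nuclei. Ratios with a counting interval, folds given as at least a value, and the UMI counts beside them are of both libraries summed.

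Resident macrophages live in adipose tissue for long periods and renew there largely without new monocytes. In fat, those along vessels and in the stroma take up debris, lipoproteins and free iron by endocytic receptors, and secrete factors that act on progenitors, vessels and adipocytes. Monocyte-derived macrophages and dendritic cells enter from blood and are known more for antigen presentation and inflammatory signalling. Mrc1 encodes the mannose receptor (CD206), an endocytic lectin that binds glycoproteins. F13a1 encodes the A subunit of coagulation factor XIII, a transglutaminase that cross-links fibrin. Cd163 encodes the scavenger receptor for haptoglobin-haemoglobin complexes, and Lyve1 a hyaluronan receptor found on lymphatic endothelium and on macrophages along vessels.

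The marker genes lie on separate chromosomes in GRCm39 (GENCODE vM39): Mrc1 (ENSMUSG00000026712) on chromosome 2 from 14234151 to 14336926, plus strand, F13a1 (ENSMUSG00000039109) on chromosome 13 from 37051152 to 37234277, minus strand, Cd163 (ENSMUSG00000008845) on chromosome 6 from 124281606 to 124307560, plus strand, and Lyve1 (ENSMUSG00000030787) on chromosome 7 from 110448585 to 110462460, minus strand. The 250 bases before the annotated start of Mrc1, the gene that names the nuclei, and of Lyve1, the gene that divides them further on, are shown because both are read in the same nuclei. They were searched on both strands for GAGGAA, the core bound by the macrophage factor PU.1, and for TGCTGA, a core bound by factors of the MAF family, and capitals mark the matches.
Mrc1, chr2:14233901-14234150, plus strand: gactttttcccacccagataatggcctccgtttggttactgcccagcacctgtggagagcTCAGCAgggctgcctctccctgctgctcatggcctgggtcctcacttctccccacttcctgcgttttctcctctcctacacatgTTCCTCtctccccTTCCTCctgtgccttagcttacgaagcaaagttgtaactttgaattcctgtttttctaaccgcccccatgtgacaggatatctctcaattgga
Lyve1, chr7:110462461-110462710, minus strand: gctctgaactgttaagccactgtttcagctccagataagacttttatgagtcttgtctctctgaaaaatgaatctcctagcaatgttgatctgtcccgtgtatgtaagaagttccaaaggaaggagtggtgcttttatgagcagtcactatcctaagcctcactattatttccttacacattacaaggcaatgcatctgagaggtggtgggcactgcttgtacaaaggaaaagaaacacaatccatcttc
The Mrc1 window holds 2 matches to the PU.1 core and 1 to the MAF core, and the Lyve1 window holds 0 of each, as do those of F13a1, which lies inside its gene, and Cd163, which overlaps an exon. The motifs were chosen after seeing the data. Of 21770 windows of this length before protein-coding genes, 22.9% hold the PU.1 core and 14.8% the MAF core. A match is a run of letters, and neither its use nor the meaning of its absence was tested.

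As a description of the choice, the Mrc1 level in members was 2877 CPM in replicate 1 and 3316 in replicate 2, against 83.8 and 34.4 in the other macrophages. The F13a1 level was 3396 and 4714 CPM against 62.8 and 75.7. Cd163 gave 862 and 1122 CPM in members against 0 and 6.88, and Lyve1 829 and 846 against 10.5 and 0. Mrc1, F13a1 and Cd163 were higher in members of replicate 2 than of replicate 1 by more than counting error, and members lay far above the other macrophages, which the selection fixes. The markers together took 0.796% of the members' UMIs in replicate 1 and 1.00% in replicate 2. As a background for such values, in nuclei with at least 10 adipocyte UMIs by the same rule, a cell type that should lack the markers, Mrc1 stood at 45.2 and 23.4 CPM and Lyve1 at 6.64 and 5.49. Among the nuclei with at least 10 adipocyte UMIs, 13 and 53 held at least 10 marker UMIs, and the part of free RNA and of doublets in this background was not tested.

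**Figure D1:**
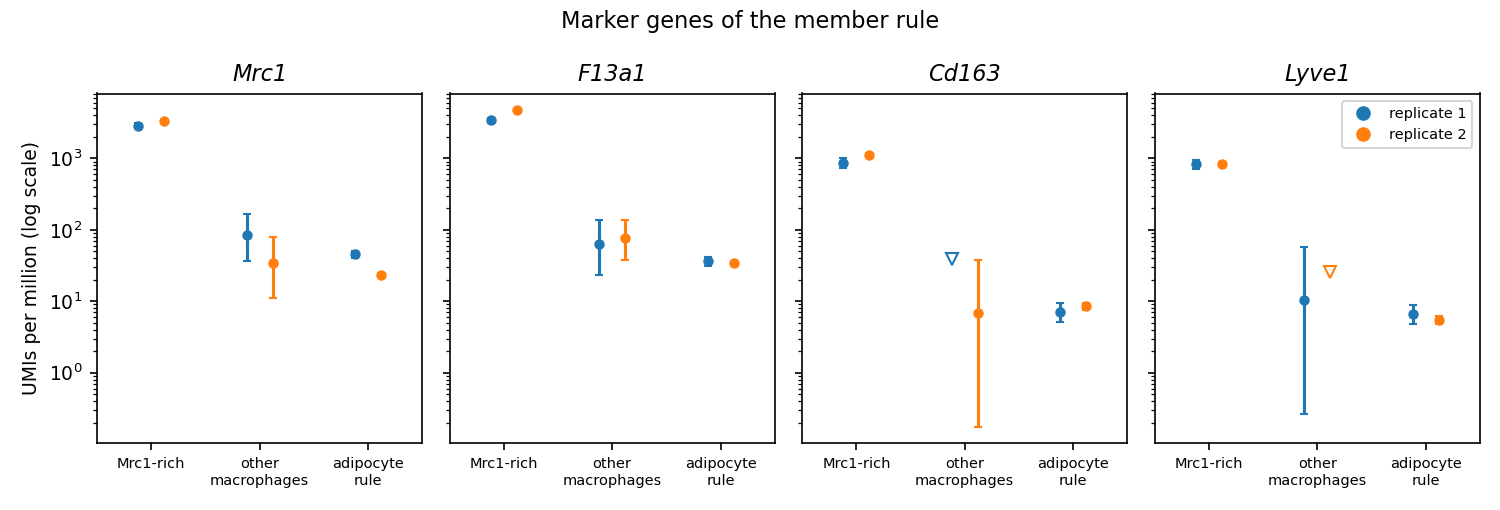
Levels of the 4 marker genes that chose the members, in CPM on a log scale, in Mrc1-rich macrophages, the other macrophages and nuclei with at least 10 adipocyte UMIs, with 1 point per library. Bars are exact 95% Poisson intervals (counting error only), open triangles are the upper limits where 0 UMIs were counted, and members lie between 829 and 4714 CPM.

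Not every member carried every marker. All 4 were found in 22.9% of members of replicate 1 (95% Clopper-Pearson interval 15.2 to 32.1) and 35.6% of replicate 2 (31.1 to 40.2), and a single one in 14.3% and 6.0%. An Mrc1 UMI was found in 88.6% and 93.3% of members, and in 80.0% and 85.6% once each nucleus was thinned to 1000 UMIs. In the adipocyte-rich nuclei, with median depths of 3099 and 5332 UMIs, 4.36% and 2.17% had one after thinning (10.9% and 6.84% before). A Lyve1 UMI was found in 39.0% and 50.0% of members, or 31.4% and 39.1% after thinning, against 0.363% and 0.440% of thinned adipocyte-rich nuclei. A nucleus with one marker more often held another than a nucleus without it: among thinned macrophages with a Lyve1 UMI, 93.9% and 93.8% had an Mrc1 UMI, against 48.3% and 64.7% of those without. Cd163, which shares a role in endocytosis, was found in 54.5% and 57.4% of nuclei with a Lyve1 UMI and in 19.8% and 33.5% of those without. These shares are among genes of the rule and are descriptions.

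The threshold lay low in the range of the members. The sum of marker UMIs had a median of 12 in replicate 1 (2 to 80) and 19 in replicate 2 (2 to 112). Just inside, at 2 UMIs, were 9 and 11 nuclei, and just outside, at 1 UMI, 15 and 17, while 29 and 49 macrophages had 0. Nuclei at 1 UMI were thus a sizeable part of the 44 and 66 other macrophages. The macrophage rule itself left out nuclei that were rich in the markers. Of 97 and 537 filtered nuclei with at least 10 marker UMIs, a limit chosen after seeing the data, 60 and 335 were members. For 20 and 115 of the rest, too few UMIs of the macrophage genes was the only reason.

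Members made up 70.5% of macrophages in replicate 1 (95% Clopper-Pearson interval 62.5 to 77.7) and 87.2% in replicate 2 (84.0 to 90.0), with a mean of 78.8% ± 11.8 (SD, n = 2). The intervals do not overlap, so the libraries differ in this share by more than counting error, but they overlap at a mitochondrial limit of 5%, with 78.6% (59.0 to 91.7) and 89.7% (86.6 to 92.2). Of all filtered nuclei, members were 3.71% (3.04 to 4.47) and 3.68% (3.35 to 4.03), with a mean of 3.69% ± 0.0179 (SD, n = 2), and here the libraries differ by less than counting error. That too ended at the 5% limit, with 1.92% (1.21 to 2.89) and 3.70% (3.37 to 4.05), and the mean moved to 2.12% with adipocyte UMIs under 3 and to 2.27% with nuclei thinned to 1000 UMIs before the rules. The other macrophages, the rest of the macrophage set, were therefore a larger part of the macrophages in the library with more mitochondrial RNA.

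Among the genes of the macrophage rule, also a description, Ms4a7, a tetraspan membrane protein of resident macrophages, was nearly confined to members, at 104 and 185 CPM against 0 and 6.88. Adgre1, which encodes the macrophage surface protein F4/80, was at 796 and 877 CPM in members and at 848 and 764 in the other macrophages. Cybb, the catalytic subunit of the phagocyte oxidase, was at 1229 and 489 CPM against 2000 and 895. Each set had to hold such UMIs by the rule, so these levels show only how the genes were divided.

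Against the other macrophages of the same libraries, members carried more RNA of most genes of the resident macrophage list, and less of many genes known from peritoneal macrophages, monocytes and dendritic cells. Of 4263 genes tested, 182 were higher in members (4.27%) and 154 lower (3.61%) at an adjusted p under 0.05 (edgeR quasi-likelihood test with Benjamini-Hochberg adjustment, library as a block). Among list genes outside the rules, 21 of 26 resident macrophage genes tested were higher and 1 lower, with a median log2 fold change of 3.51, against 0.00 over all genes tested. None of 12 genes of large peritoneal macrophages was higher and 10 were lower, with a median of -2.75. Monocyte genes were lower for 6 of 11 and dendritic cell genes for 6 of 10. Median depth was 1750 and 2185 UMIs in members and 1720.5 and 1901 in the other macrophages, and the median mitochondrial share 8.42% and 1.30% against 9.34% and 1.92%, and their part in the results was not tested.

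**Figure D2:**
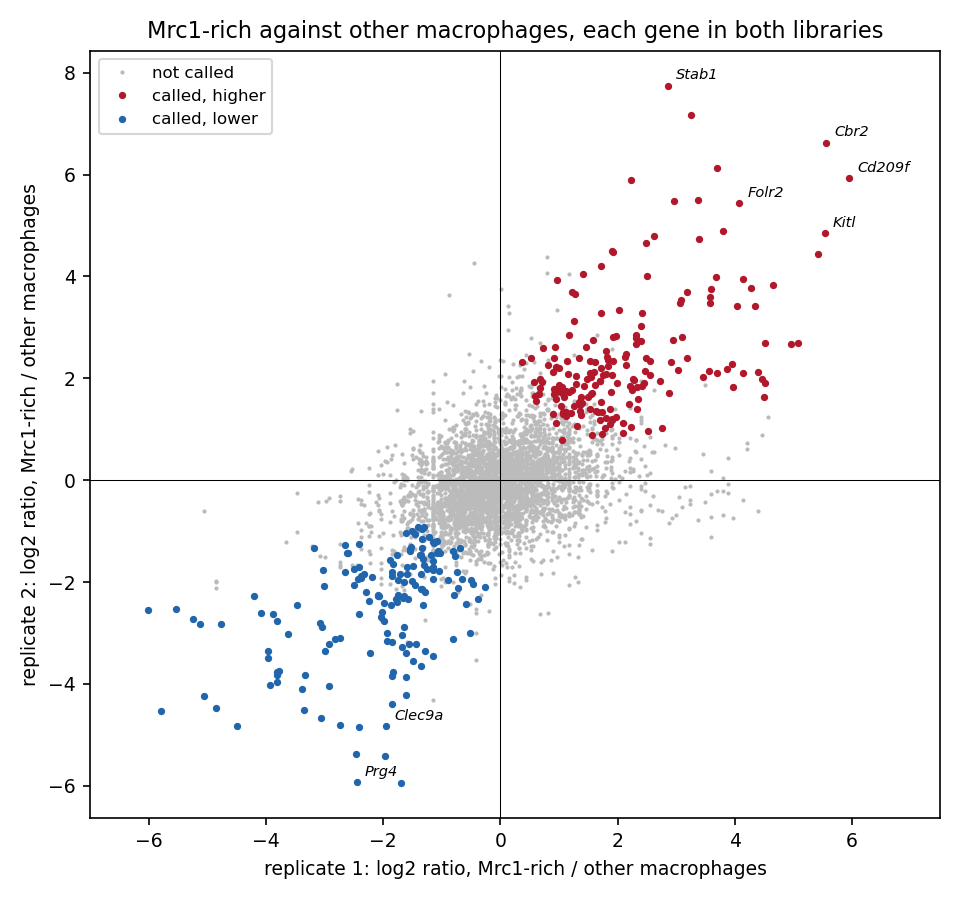
Log2 ratio of each gene between Mrc1-rich and other macrophages in replicate 1 (horizontal axis) and replicate 2 (vertical axis), 1 point per gene tested outside the rules. The 182 genes called higher (red) lie in the upper right and the 154 called lower (blue) in the lower left, which the test with the library as a block favours, while 63.4% of all genes tested had the same direction in both libraries.

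The largest differences included genes that had almost no UMI in the other macrophages. Cbr2, a carbonyl reductase, was at 245 CPM in members of replicate 1 and 340 in those of replicate 2, and at 0 in the other macrophages of both. With 415 UMIs against 0, it was at least 26.0-fold higher, counting 0 as 3 UMIs over both libraries, a floor and not an exact interval (adjusted p = 4.6e-05). Trpv4, a calcium-permeable channel that senses stretch and osmolarity, was at 70.6 and 101 CPM against 0 and 0, or at least 7.71-fold higher by the same floor (adjusted p = 0.0037). Kitl, the ligand of the receptor Kit, was at 240 and 299 CPM against 0 and 6.88, a ratio of 69.6 (95% counting interval 12.4 to 2755) that rests on 1 UMI in the other macrophages. In none of these did a library of the other macrophages come near a library of the members. Enpep, an aminopeptidase that cleaves angiotensin, had a ratio of 37.8 (6.71 to 1500) and Hpgds, a prostaglandin D synthase, one of 32.2 (5.69 to 1277). P2ry12, an ADP receptor best known from microglia, was at 198 and 164 CPM against 10.5 and 6.88. Fxyd2, a regulator of the sodium pump, had a ratio of 26.1 (4.61 to 1040). With DESeq2, Cbr2, Trpv4, Hpgds and Fxyd2 were no longer called, and without nuclei that held a dendritic or lymphocyte UMI neither was Fxyd2.

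Several genes called higher encode surface lectins, a grouping made after the calls were seen. Cd209f was at 970 and 630 CPM in members against 10.5 and 6.88 in the other macrophages, a ratio of 82.6 (22.8 to 683). Cd209b was at 348 and 496 CPM against 31.4 and 0, a ratio of 37.9 (12.9 to 184), and Cd209d and Cd209g had ratios of 56.4 (10.0 to 2235) and 54.0 (9.61 to 2139). These C-type lectins, relatives of human DC-SIGN that bind mannose-rich glycans, arose by duplication, so the division of UMIs among them is uncertain. Cd209a, a relative used as a dendritic cell marker, was at 137 and 159 CPM against 10.5 and 172 (log2 fold change 0.66 ± 0.51 SE, adjusted p = 0.54). The galactose-binding lectins Clec10a and Mgl2, also near copies of each other, were at 1785 and 1538 CPM against 73.3 and 234, and at 391 and 438 against 10.5 and 27.5. Their log2 fold changes were 3.45 ± 0.40 (adjusted p = 5.7e-05) and 4.37 ± 0.50 (adjusted p = 4.8e-05). Members exceeded the other macrophages in both libraries for each of these lectins except Cd209a. Cd209b was no longer called with DESeq2.

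Among other resident list genes called higher, Folr2, the folate receptor beta, was at 438 and 449 CPM against 20.9 and 6.88, a ratio of 35.9 (12.2 to 175). Stab1, stabilin-1, which clears modified lipoproteins and growth factors, was at 414 and 738 CPM against 52.4 and 0 (log2 fold change 4.78 ± 0.66, adjusted p = 0.00027), and lost its call with DESeq2. Dab2, an adaptor that loads receptors into clathrin-coated pits, was at 834 and 1112 CPM against 41.9 and 68.8 (4.15 ± 0.39, adjusted p = 8.8e-06). Members exceeded the other macrophages in both libraries for each of these receptors and adaptors. The wider list of scavenger and efferocytosis receptors, those by which phagocytes take up dead cells and lipid, was mixed: 5 of 17 genes tested were higher and 2 lower, with a median of -0.21. Abca1, the cholesterol exporter, was at 414 and 460 CPM against 105 and 61.9 (2.49 ± 0.39, adjusted p = 0.00080), and Cd36, the fatty acid and oxidised lipoprotein receptor, at 1865 and 1305 against 796 and 378 (1.53 ± 0.30, adjusted p = 0.0039). Mertk and Colec12 were the other genes called higher. Mertk was at 113 and 327 CPM against 83.8 and 61.9 (log2 ratios 0.37 and 2.32), so its difference lay mostly in replicate 2. Itgav, an integrin chain that binds dead cells through bridging proteins, was lower at 70.6 and 58.0 CPM against 262 and 317, and Havcr2, an inhibitory receptor that binds phosphatidylserine, at 4.71 and 6.55 against 94.2 and 96.3. Calls ended for Mertk with DESeq2, with adipocyte UMIs under 3 and without nuclei that held a dendritic or lymphocyte UMI, and for Cd36 and Colec12 at a mitochondrial limit of 5%.

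Selenop, the plasma carrier of selenium and a further call of the resident list, was at 3570 and 3387 CPM against 335 and 124 (log2 fold change 4.08 ± 0.38, adjusted p = 7.6e-06). Retnla, a resistin-like protein of alternatively activated macrophages, was at 6880 and 4783 CPM against 1225 and 186 (3.51 ± 0.43, adjusted p = 9.2e-05). It had the most UMIs of the resident list in members of both libraries. Gas6, the ligand that bridges dead cells to TAM receptors, was at 768 and 770 CPM against 41.9 and 68.8 (3.78 ± 0.40, adjusted p = 2.4e-05). Fcna, a lectin that starts complement activation, was at 810 and 686 CPM against 209 and 27.5 (2.96 ± 0.47, adjusted p = 0.00080), and the chemokine Ccl24 at 306 and 220 against 73.3 and 27.5. The growth factor list had 3 of 7 genes higher and none lower: Gas6, Igf1 at 353 and 469 CPM against 94.2 and 96.3 (2.16 ± 0.37, adjusted p = 0.0014), and Pdgfc at 226 and 297 against 10.5 and 61.9 (2.77 ± 0.47, adjusted p = 0.0012). Igf1 encodes an insulin-like growth factor and Pdgfc a ligand of the progenitor receptor Pdgfra. Pdgfc was no longer called at the 5% mitochondrial limit.

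Some genes often named as resident markers were not called higher in members. Timd4, the TIM4 receptor for phosphatidylserine on long-lived macrophages, was at 320 and 235 CPM in members and at 660 and 227 in the other macrophages (adjusted p = 0.51). Vsig4, a complement receptor, was at 80.1 and 34.6 CPM against 52.4 and 82.6 (adjusted p = 0.77). The platelet chemokine Pf4 was at 589 and 424 CPM against 429 and 82.6, higher in members of both libraries but short of a call (log2 fold change 1.30 ± 0.40, adjusted p = 0.061). Cd5l, a secreted scavenger protein also made by peritoneal macrophages, was the resident list gene that was lower, at 179 and 19.7 CPM against 639 and 268 (log2 fold change -2.67 ± 0.41, adjusted p = 0.00076).

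Complement and Fc receptor genes were divided, with 6 of 14 tested higher, 2 lower and a median of 1.11. C1qa, a chain of the first complement component, was at 1969 and 1409 CPM against 942 and 427 (log2 fold change 1.42 ± 0.30, adjusted p = 0.0071). Fcgrt, the neonatal Fc receptor that recycles IgG, was at 462 and 495 CPM against 126 and 89.5 (2.22 ± 0.37, adjusted p = 0.0010). C1qc, the inhibitory receptor Fcgr2b and the anaphylatoxin receptor C5ar1 were also higher. The activating receptor Fcgr4 and the central complement protein C3 were lower, C3 at 141 and 76.7 CPM against 262 and 296 (-1.47 ± 0.35, adjusted p = 0.014). DESeq2 ended the calls of C1qc and C3, the 5% mitochondrial limit that of Fcgr2b, and a limit of under 3 adipocyte UMIs those of C1qc and Fcgr2b. Without nuclei that held a dendritic or lymphocyte UMI, C1qa and C1qc were no longer called, 4 genes were higher and 4 lower.

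Genes of antigen presentation by MHC class II were at similar levels in both sets, and 0 of 8 tested were called by edgeR or by DESeq2, with a median log2 fold change of 0.10. Cd74, the invariant chain that chaperones class II molecules, was at 4568 and 2110 CPM in members against 2953 and 2209 (adjusted p = 0.62), and H2-Ab1, a class II beta chain, at 2604 and 1404 against 2094 and 1858 (adjusted p = 0.98). The summed list stood at 13370 and 6746 CPM in members and at 9602 and 8154 in the other macrophages, higher in members of replicate 1 and lower in those of replicate 2. Once nuclei with a dendritic or lymphocyte UMI were left out of both sets, H2-Ab1 and H2-Eb1 were called higher in members.

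Myeloid transcription factors included 5 of 19 higher, 3 lower and a median of 0.05. Maf, which holds macrophages in a resident, self-renewing state, was at 754 and 1086 CPM against 83.8 and 89.5 (log2 fold change 3.45 ± 0.37, adjusted p = 2.5e-05). Rbpj, the DNA-binding partner of Notch, was at 1903 and 3616 CPM against 241 and 530 (2.89 ± 0.31, adjusted p = 2.5e-05). Mitf, which drives lysosomal genes, was at 353 and 533 CPM against 41.9 and 103, and Zeb2 was higher too. Cebpb, Bhlhe40 and Runx2 were lower, Cebpb at 339 and 102 CPM against 848 and 296 (-1.39 ± 0.30, adjusted p = 0.0086). Runx2 was at 28.3 and 61.8 CPM against 31.4 and 261 (log2 ratios -0.26 and -2.09), so its difference lay mostly in replicate 2. Spi1, which encodes PU.1, was at 348 and 294 CPM against 346 and 296 (0.03 ± 0.31, adjusted p = 0.97), and thus gave no sign of a difference. Csf1r, the receptor for the growth factor CSF1 that macrophages need to survive, was at 1182 and 1050 CPM against 450 and 337 (1.55 ± 0.30, adjusted p = 0.0036), the only call among 7 genes of that pathway. DESeq2 ended the calls of Cebpb, Bhlhe40 and Runx2, and the 5% mitochondrial limit those of Zeb2, Cebpb and Csf1r. With adipocyte UMIs under 3, and without nuclei that held a dendritic or lymphocyte UMI, Zeb2 and Csf1r were not called either.

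Lists of macrophage activation and metabolism gave few calls each. The lipid-associated list, genes of macrophages around dying adipocytes, had 2 of 10 higher (Cd36 and the lysosomal protease Ctsb) and 1 lower (the tetraspanin Cd9, at 188 and 34.6 CPM against 576 and 365), with a median of 1.05. Apoe, its lipid carrier, was at 11251 and 6425 CPM in members against 8220 and 3792 (log2 fold change 0.64 ± 0.26, adjusted p = 0.16). Alternative activation genes were higher for 3 of 10 (Retnla, Clec10a and Mgl2, all shared with the resident list), with a median of 0.15. Iron and heme genes were higher for 2 of 7, with a median of 1.23: Blvrb, which reduces biliverdin, at 122 and 170 CPM against 41.9 and 6.88, and Tfrc, the transferrin receptor, at 118 and 218 against 0 and 55.1. Both lost their calls with DESeq2. Of 6 immediate early genes, Junb and Nr4a1 were lower and none was higher, with a median of -1.22. Junb lost its call with DESeq2 and with no filter on low counts. It was not called either between members with at least 4 marker UMIs and macrophages with none. Ctsb lost its call at the 5% mitochondrial limit, with adipocyte UMIs under 3 and without nuclei that held a dendritic or lymphocyte UMI.

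Genes of large peritoneal macrophages, the cells that fill the cavity around visceral fat, were the lowest group. Prg4, the lubricin that coats serosal surfaces, was at 914 and 20.6 CPM in members against 5016 and 1280 in the other macrophages (log2 fold change -3.92 ± 0.57, adjusted p = 0.00048). Alox15, a lipoxygenase, was at 292 and 14.0 CPM against 1623 and 599 (-3.66 ± 0.49, adjusted p = 0.00023), and Icam2, an adhesion molecule, at 28.3 and 6.55 against 461 and 110 (-3.98 ± 0.47, adjusted p = 6.9e-05). Both sets carried more of these RNAs in replicate 1 than in replicate 2. Selp, Tgfb2, Itga6, F5, Garnl3, Cxcl13 and Laptm5 were also lower. Gata6, the factor that sets the identity of these cells, was at 14.1 and 10.3 CPM against 62.8 and 68.8 (-2.47 ± 0.75, adjusted p = 0.055). All 13 genes of the list had UMIs in members, and they summed to 2585 and 739 CPM against 11833 and 4342. Prg4 had more UMIs than any other gene of the list except in members of replicate 2, where Laptm5 led. There Laptm5 gave 469 of the 739 CPM, so that sum rests mostly on Laptm5. Saa3, an acute-phase protein outside the list, was at 518 and 32.8 CPM against 4325 and 840 (-3.75 ± 0.38, adjusted p = 1.6e-05). Calls ended for Prg4, Garnl3 and Laptm5 with DESeq2 and for Saa3 and Laptm5 at the 5% mitochondrial limit. Garnl3 and Laptm5 were also lost with adipocyte UMIs under 3, Garnl3 after thinning and Laptm5 with no filter on low counts.

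Monocyte genes summed to 3141 and 1162 CPM in members against 10859 and 4535, led by Fn1, fibronectin, at 2260 and 426 against 9163 and 2553 (log2 fold change -2.27 ± 0.28, adjusted p = 1.0e-04). Itgal, the integrin chain of LFA-1 that leucocytes use to leave vessels, was at 18.8 and 19.7 CPM against 209 and 282 (-3.68 ± 0.45, adjusted p = 8.1e-05). Ace, the angiotensin-converting enzyme of non-classical monocytes, was at 9.42 and 13.1 CPM against 157 and 179 (-3.77 ± 0.56, adjusted p = 0.00050). Plac8, Napsa and Nr4a1 were lower as well, and the list's median was -2.27. Ccr2, the receptor by which monocytes leave the marrow, was at 433 and 334 CPM in members and at 325 and 420 in the other macrophages (0.04 ± 0.31, adjusted p = 0.97). The neutrophil and monocyte gene S100a8 and the integrin gene Itgam had 0 UMIs in members of both libraries. Napsa lost its call with DESeq2.

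Dendritic cell genes had a median of -2.17 and none was higher. Irf8, which directs the type of dendritic cell that cross-presents antigen, was at 37.7 and 49.6 CPM in members against 325 and 365 (log2 fold change -2.90 ± 0.35, adjusted p = 7.3e-05). Clec9a, a receptor of that type for dead cells, was at 42.4 and 10.3 CPM against 168 and 303 (-3.68 ± 0.57, adjusted p = 0.00076). Flt3, the growth factor receptor of dendritic cells, was at 9.42 and 36.5 CPM against 94.2 and 255, and Zbtb46, Dpp4 and Fscn1 were lower too. Outside the lists, Btla, an inhibitory receptor, was at 0 and 5.62 CPM against 126 and 138, and Zfp366, a zinc-finger protein of dendritic cells, at 9.42 and 9.36 against 115 and 220 (-4.24 ± 0.60, adjusted p = 0.00033). The dendritic list summed to 1045 and 881 CPM in members and to 1665 and 2539 in the other macrophages. In members 13 and 15 of 16 genes were detected, Sirpa led, and Xcr1 was at 0 in both libraries. Irf8 led in the other macrophages. Zbtb46 and Fscn1 lost their calls with DESeq2, and Irf8, Clec9a and Dpp4 lost theirs once nuclei were thinned to 1000 UMIs. Dpp4 was not called with adipocyte UMIs under 3 either.

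The remaining genes named for their size were also lower in members. They were 5430437J10Rik, a transcript without a known role here (9.42 and 22.5 CPM against 262 and 647), Slfn4, a schlafen gene of myeloid cells (0 and 3.74 against 73.3 and 75.7), S1pr5, a receptor for sphingosine 1-phosphate (4.71 and 3.74 against 94.2 and 61.9), Apoc1, an apolipoprotein (4.71 and 9.36 against 94.2 and 131), and Gm12159, an unnamed gene model (9.42 and 5.62 against 83.8 and 96.3). Their log2 fold changes ran from -4.77 to -3.69.

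Markers of other cell types were present in both sets, and their part in the results was not tested. All 12 adipocyte genes had UMIs in members, at a sum of 10041 and 5521 CPM against 10294 and 7707 in the other macrophages and 62295 and 56945 in adipocyte-rich nuclei. Scd1, a fatty acid desaturase, led in both macrophage sets, and 0 of 12 were called by edgeR or by DESeq2. Fibro-adipogenic progenitor genes summed to 1483 and 843 CPM against 1571 and 1596, with Gsn, gelsolin, leading. Dpp4 was the only call of 4 tested, and that call ended with adipocyte UMIs under 3 and after thinning. Genes of T and NK lymphocytes summed to 84.8 and 124 CPM against 209 and 227, with 9 and 11 of 16 genes detected, Skap1 leading and Trac at 0 in members of both libraries. Granulocyte and mast cell genes gave 75.4 and 86.1 CPM against 241 and 206. Endothelial genes gave 141 and 241 CPM against 168 and 330, mesothelial genes 80.1 and 117 against 73.3 and 227, and smooth muscle and pericyte genes 56.5 and 112 against 157 and 110. None of these was higher in members of both libraries, but the B lymphocyte list was, at 584 and 1069 CPM against 419 and 667, with 7 and 9 of 10 genes detected and Bank1, a B cell scaffold protein that was called higher, leading in members.

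The calls depended on the model. Taking each library as a block was part of the design, since both sets come from the same libraries. Without that block 33 genes were higher and 23 lower, and of the genes named or listed here 51 lost their call and 37 kept it. DESeq2 gave 72 higher and 63 lower. Of the 336 calls, 217 were still tested at the 5% mitochondrial limit, 244 with adipocyte UMIs under 3 and 242 after thinning. Genes not tested in a setting are not among the lost calls given above, which does not mean that they held.

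Within the macrophages, other lists followed the sum of marker UMIs. In macrophages with 0 marker UMIs the resident list, free of rule genes, summed to 3816 CPM in replicate 1 and 1778 in replicate 2. It reached 11889 and 8983 at 4 to 9 marker UMIs, 20784 and 14652 at 10 to 19, and 34764 and 26086 at 20 or more. Bins within the members climbed too, but this is a description and not a test, since the UMIs that chose the members also cut the bins. The monocyte list ran the other way, from 10510 and 4524 CPM at 0 marker UMIs to 5421 and 2887 at 4 to 9. It was at 1272 and 838 at 10 to 19 and at 1465 and 619 at 20 or more, so replicate 1 did not fall further in the last bin. Fn1 of that list was at 5174 CPM in the other macrophages and 730 in members over both libraries. It thus weighs heavily in the course, which was not divided by gene, while Ccr2 was at 382 and 351. MHC class II genes had no steady course, with 10247 and 6692 CPM at 0, 14229 and 9526 at 4 to 9, 14742 and 5943 at 10 to 19, and 11614 and 5909 at 20 or more. Bins next to the threshold hold few nuclei, 15 and 17 at 1 UMI and 17 in replicate 1 at 2 to 3, and the courses given here leave them out. Median depth was 1741 and 1899 UMIs at 0 marker UMIs, 1407 and 1634 at 4 to 9, and 1990 and 2640 at 20 or more. The part of depth in the course was not tested.

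**Figure D3:**
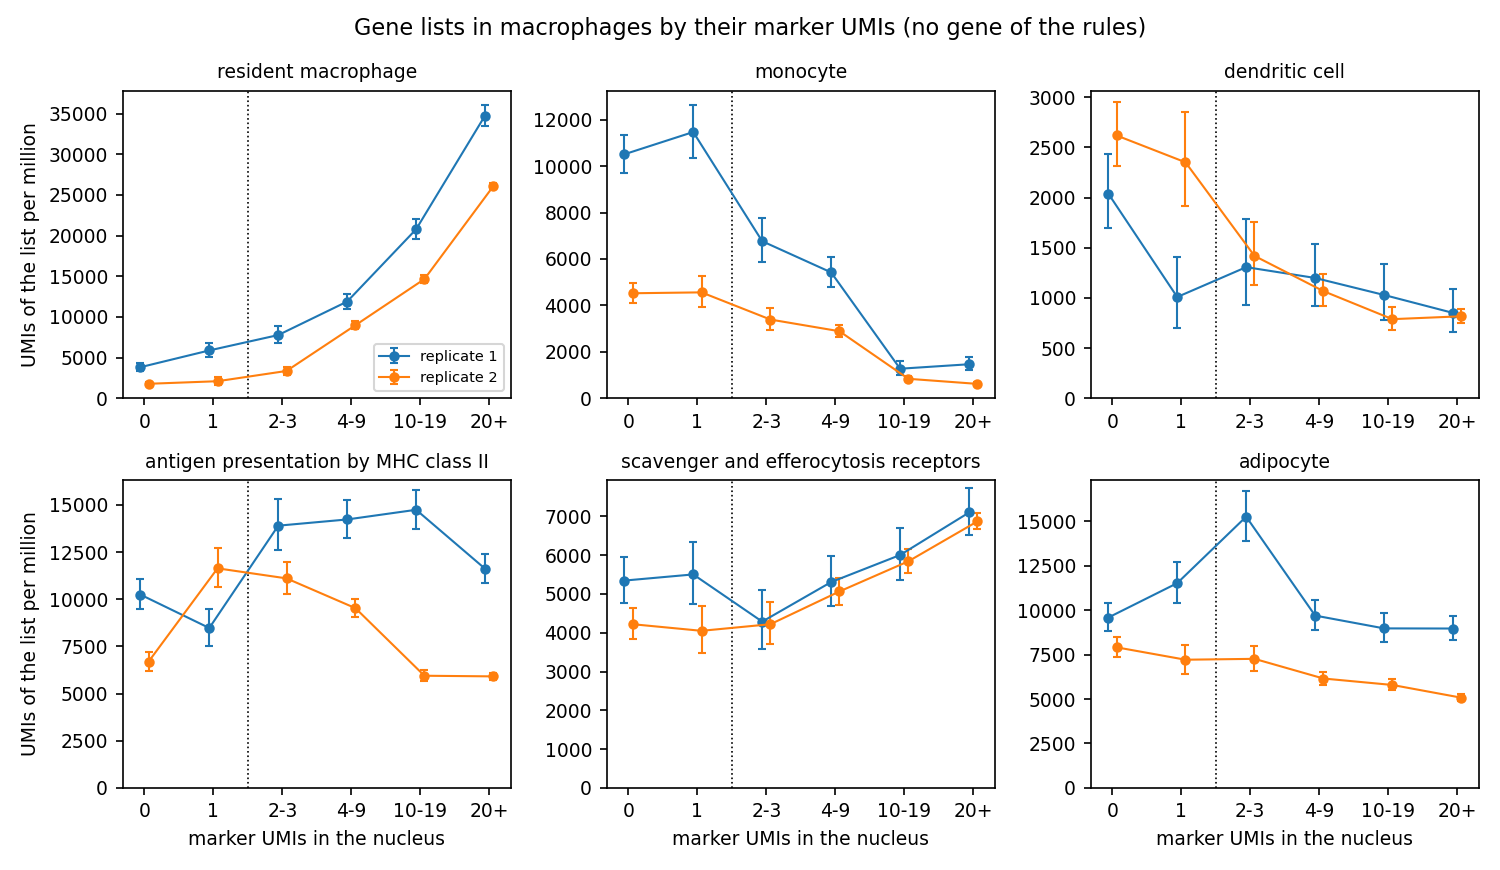
Summed level of 6 gene lists in CPM (vertical axes) in macrophages grouped by their marker UMIs (horizontal axes), 1 line per library, with exact 95% Poisson intervals (counting error only) and a dotted line at the member threshold. The resident list climbs from 3816 and 1778 to 34764 and 26086. The monocyte list, in which Fn1 weighs heavily, is lower in the last bin than in the first. The adipocyte list goes from 9589 to 8972 in replicate 1 and declines from 7914 to 5077 in replicate 2.

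Members also varied among themselves. Those with a Lyve1 UMI, 41 of replicate 1 (39.0%) and 225 of replicate 2 (50.0%), carried more RNA of most resident and complement genes tested, and less of most MHC class II genes tested, than the 64 and 225 without. Of 6438 genes besides the markers, which stayed in the p adjustment but are not counted, 159 were higher with Lyve1 (2.47%) and 137 lower (2.13%). Resident list genes were higher for 22 of 26 and lower for none, with a median log2 fold change of 1.62, against -0.01 over all genes tested, while 6 of 9 MHC class II genes were lower and none higher, with a median of -0.89. A UMI is found more readily in a deeper nucleus: median depths were 1925 and 2349 UMIs with Lyve1 and 1446.5 and 1988 without, and the median mitochondrial share was 9.85% and 1.69% with Lyve1 against 7.49% and 0.888% without. The part of depth and mitochondrial share in the results was not tested. Lyve1 is also one of the marker genes that chose the members, so the division reuses a value of the rule. Members without a Lyve1 UMI had to reach 2 UMIs through Mrc1, F13a1 and Cd163 alone. The p-values of the division do not allow for this, and its part in the results was not tested.

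Fcna, the complement-activating lectin, differed most among resident genes. It was at 1796 and 1173 CPM with Lyve1 and at 135 and 129 without (log2 fold change 3.48 ± 0.26, adjusted p = 6.4e-38). Folr2 was at 857 and 714 CPM against 151 and 147 (2.46 ± 0.27, adjusted p = 2.6e-16), and Cd209f at 1784 and 1026 against 413 and 177 (2.44 ± 0.24, adjusted p = 5.7e-22). Selenop was at 6488 and 5130 CPM against 1571 and 1392 (2.06 ± 0.18, adjusted p = 7.0e-28). For each, the lowest library with Lyve1 lay above the highest without. Timd4, which had not separated members from the other macrophages, was at 452 and 337 CPM with Lyve1 against 230 and 118 without (1.39 ± 0.30, adjusted p = 0.00022). Pf4, which had fallen short of a call between members and the other macrophages, was at 927 and 635 CPM against 357 and 183 (1.71 ± 0.26, adjusted p = 3.8e-09). Dab2, Stab1 and Mgl2, also called higher, lost their calls with DESeq2.

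**Figure D4:**
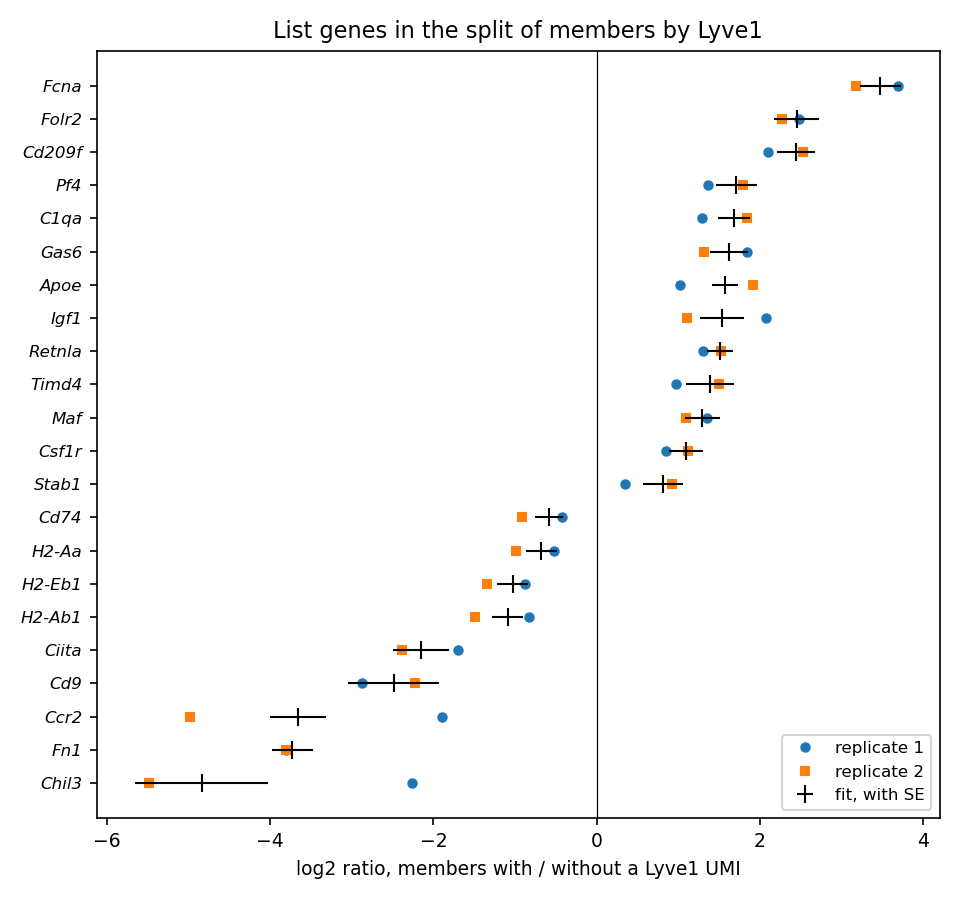
Log2 ratio between members with and without a Lyve1 UMI (horizontal axis) for 22 list genes chosen after their values were seen, in replicate 1 (circles) and replicate 2 (squares), with the edgeR estimate and its SE as a cross. Resident and complement genes lie to the right of 0, MHC class II and monocyte genes to the left, in both libraries.

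Outside the lists, Ednrb, an endothelin receptor, was at 1425 and 1196 CPM with Lyve1 and at 254 and 261 without (log2 fold change 2.40 ± 0.24, adjusted p = 1.2e-20). Emp1, an epithelial membrane protein, was at 359 and 188 CPM against 39.7 and 34.1 (2.78 ± 0.42, adjusted p = 6.2e-09), and Rcn3, a calcium-binding protein of the endoplasmic reticulum, at 174 and 121 against 23.8 and 24.1. Twf1, an actin-binding protein, Ptp4a3, a phosphatase, and Tslp, a cytokine that acts on dendritic cells, were higher as well. Tesk1, a kinase that acts on cofilin, had a ratio of 10.1 (95% counting interval 3.17 to 51.7) with 32 UMIs against 3. Ptp4a3 lost its call without the nuclei in the top 5% of UMIs and Tslp after thinning to 1000 UMIs.

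Complement and Fc receptor genes were higher with Lyve1 for 9 of 13 and lower for none, with a median of 1.30. C1qa was at 3036 and 2121 CPM against 1238 and 592 (log2 fold change 1.68 ± 0.20, adjusted p = 7.7e-15), and Fcgrt at 915 and 742 against 151 and 213 (2.17 ± 0.26, adjusted p = 8.3e-14). Iron and heme genes were higher for 4 of 10 and lower for none, with a median of 0.89. They were Hmox1, the heme oxygenase, at 162 and 265 CPM against 103 and 88.3 (1.40 ± 0.36, adjusted p = 0.0052), Trf, transferrin, at 1552 and 799 against 825 and 285, the ferritin chain Fth1, and Blvrb. The lipid-associated list divided into 6 of 11 higher (Apoe, Cd36, Ctsb, Ctsl, Cd63 and Trem2) and 2 lower (Cd9 and Lpl), with a median of 1.26. Apoe was at 16105 and 9782 CPM against 7927 and 2580 (1.57 ± 0.15, adjusted p = 1.6e-21), and Lpl, the lipoprotein lipase that adipocytes also make, at 892 and 391 against 1904 and 1058 (-1.19 ± 0.21, adjusted p = 3.1e-06). Growth factors were higher for 4 of 10 (Igf1, Gas6, Pdgfc and Grn) and lower for none, with Igf1 at 649 and 626 CPM against 151 and 289. Cd63 lost its call with DESeq2, Hmox1 and Trem2 without a filter on low counts, and Blvrb without the nuclei in the top 5% of UMIs.

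MHC class II genes were among those lower with Lyve1. H2-Ab1 was at 1784 and 759 CPM with Lyve1 against 3166 and 2142 without (log2 fold change -1.09 ± 0.19, adjusted p = 1.4e-06), and H2-Eb1 at 1865 and 636 against 3420 and 1622 (-1.03 ± 0.19, adjusted p = 7.4e-06). Ciita, the coactivator that switches these genes on, was at 81.1 and 82.4 CPM against 278 and 436 (-2.15 ± 0.35, adjusted p = 6.6e-08). Cd74, H2-Aa and H2-DMb1 were lower too. The summed list was at 9941 and 4297 CPM with Lyve1 against 15719 and 9552, lower with Lyve1 in each library although replicate 1 was higher than replicate 2 throughout. H2-DMb1 lost its call with DESeq2, and Cd74, H2-Aa and H2-DMb1 lost theirs with adipocyte UMIs held under 3.

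Monocyte genes summed to 695 and 282 CPM with Lyve1 against 4816 and 2171 without, and 3 of 6 tested were lower, with a median of -2.36. Ccr2 was at 162 and 21.0 CPM against 619 and 693 (log2 fold change -3.66 ± 0.34, adjusted p = 3.6e-23). Its log2 ratio in a single library ranged from -4.985 to -1.89, a spread that this p hardly reflects. Fn1 was at 255 and 59.6 CPM against 3634 and 845 (-3.73 ± 0.25, adjusted p = 2.0e-45). Chil3, a chitinase-like protein of monocytes, had 2 UMIs with Lyve1 and 68 without, a ratio of 35.8 to 1 in favour of the nuclei without (95% counting interval 9.53 to 301). Ccr2, which gave no call between members and other macrophages, thus divided the members themselves, and it lost that call with DESeq2. Over both libraries Ccr2 was at 678 CPM in members without Lyve1 and at 382 in the other macrophages. Members are thus not all low in monocyte genes, and the word resident in their name comes from the marker rule. Lyz1, a lysozyme whose UMIs may be shared with its near copy Lyz2, was at 0 and 22.8 CPM against 1166 and 552 (-4.98 ± 0.37, adjusted p = 2.3e-37). Ear2, a ribonuclease with near copies, had 0 UMIs against 35 and was at least 12.3-fold lower, and Adam8, a metalloprotease, 0 against 30 and at least 10.5-fold lower, with 0 again counted as 3 UMIs over both libraries.

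Other genes far lower with Lyve1 rested on 1 or 2 UMIs. Skint3 had 2 UMIs against 125, a ratio of 65.8 (17.8 to 549) in favour of nuclei without, and Ndnf, a secreted neurotrophic factor, 2 against 80, a ratio of 42.1 (11.3 to 354). Klra2, a lectin-like receptor with near copies, had 1 against 37, and Phlda1 1 against 35. Id2, an inhibitor of DNA binding needed by dendritic and lymphoid cells, had 2 against 57, and Ltb4r1, the leukotriene B4 receptor, 2 against 36. Phlda1 and Ltb4r1 lost their calls without the nuclei in the top 5% of UMIs.

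Further lists were mixed in this division. Peritoneal macrophage genes were lower for 3 of 8 (Prg4, Alox15 and Itga6) and higher for none, with a median of -1.75, and Prg4 was at 57.9 and 8.77 CPM against 1500 and 34.1 (log2 fold change -3.64 ± 0.44, adjusted p = 4.3e-14). Of 20 transcription factors, 2 were higher and 1, Runx1, lower, with a median of -0.05, and Maf was higher at 1182 and 1445 CPM against 460 and 675 (1.30 ± 0.22, adjusted p = 4.7e-07). Scavenger and efferocytosis receptors gave 5 of 16 higher (Abca1, Cd36, Stab1, Timd4 and Colec12) and 2 lower (Dock2 and Itgb5), with a median of -0.21. In the colony-stimulating factor pathway Csf1r was higher and Csf2ra, the GM-CSF receptor chain, lower, at 255 and 146 CPM against 516 and 331. Alternative activation genes gave 3 of 10 higher and 1 lower, with a median of 0.46. None of 7 dendritic cell genes, 5 inflammatory, 6 immediate early, 4 proliferation or 7 progenitor genes was called by edgeR. No test of the macrophage rule genes is read here, since their UMIs chose the nuclei of both sets. Adipocyte genes summed to 10289 and 5370 CPM with Lyve1 and to 10299 and 6024 without, with Lpl the only call of 14. The list here includes Plin1 and Cidec, whose UMIs the adipocyte rule limits in every member, and nothing is read from their tests. Prg4, Abca1, Stab1, Dock2 and Csf2ra lost their calls with DESeq2.

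Here too the model mattered. DESeq2 called 72 genes higher and 31 lower, so that 69.9% of its calls were higher against 53.7% with edgeR, and it gave an adjusted p for 177 of the 296 genes called by edgeR. After thinning each nucleus to 1000 UMIs, 98 were higher and 47 lower. Without the library block 2 genes were higher and 10 lower, and at the 5% mitochondrial limit, which left 4 nuclei with Lyve1 in replicate 1, 1 was higher and 7 lower. Of the genes named or listed for this division, 75 lost their call without the block and 7 kept it. Of those still tested at the 5% limit, 67 lost their call and 6 kept it, so the losses given gene by gene above are not complete.

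Set beside all other filtered nuclei, the members are described without a test, because macrophage genes chose them. Of 4047 genes with at least 10 expected UMIs in members of each library, a filter chosen after seeing the data, 359 (8.87%) were above a log2 ratio of 1 in both libraries and 910 (22.5%) below -1. The filter takes the level over all filtered nuclei, members included, so some genes, such as Csf1r, C1qb, Cfp, Csf2ra, Dock2 and Laptm5, reached it only through the members' own counts, and nothing is read from the first count. Selenop was at 3570 and 3387 CPM in members against 207 and 135 (log2 ratios 4.11 and 4.65), and Retnla at 6880 and 4783 against 149 and 63.1 (5.53 and 6.24). Of 8 resident list genes considered, 7 were above the limit. Genes that were lower in members than in the other macrophages could still be above the tissue: Fn1 of the monocyte list had log2 ratios of 2.92 and 2.51, and Prg4 of the peritoneal list 3.20 and 1.06. C1qa was at 1969 and 1409 CPM against 57.8 and 21.7, while C3, which other cells of fat also make, was below the limit, at 141 and 76.7 CPM against 410 and 346. Cd74 was at 4568 and 2110 CPM against 141 and 48.9, and all 4 MHC class II genes considered were above. Apoe was at 11251 and 6425 CPM against 777 and 228 (3.86 and 4.82), so members were rich in this lipid carrier relative to the tissue.

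Some genes that set members apart from the other macrophages did not set them apart from the tissue. Igf1 was at 353 and 469 CPM in members and at 465 and 516 in all other nuclei (log2 ratios -0.39 and -0.14). Rbpj, by contrast, was at 1903 and 3616 CPM against 140 and 160 (3.77 and 4.50). Of 13 transcription factors considered, Maf, Mitf and Rbpj were above the limit and Bhlhe40, Nfia, Nr1h3 and Tcf7l2 below. Vegfa, the vessel growth factor, was at 170 and 86.1 CPM against 820 and 747, below the limit together with Wnt5a, while Gas6 and Grn were above. All 12 adipocyte, 11 progenitor and 4 mesothelial genes considered were below, for example Acaca, the enzyme that commits carbon to fatty acids, at 810 and 840 CPM against 10649 and 13434.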

How the data were processed

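The authors prepared single-nucleus libraries, sequenced them, mapped reads with CeleScope to the GRCm39 genome, called nuclei and deposited UMI counts for 56980 genes per barcode; the CeleScope version is not given in the sources used here. Counts of the 2 visceral libraries were filtered and sorted by the rules above, without a doublet caller. UMIs were summed per library and set, and edgeR 4.0.16 in R 4.3.3 (TMM, filterByExpr, quasi-likelihood test, library as block, because both sets share each library) gave p-values with Benjamini-Hochberg adjustment over all genes tested. DESeq2 1.42.0 was an alternative. CPM, shares and intervals came from Python 3.11.15 with scipy 1.17.1, and log2 ratios against all other nuclei used a pseudocount of 0.5 UMIs. Thinning used seed 1. Members and the 26 gene lists (357 genes) were chosen with earlier results of these data known. Named genes were the 15 (by Lyve1, 10) with the largest log2 fold changes each way among calls with the same direction in both libraries and at least 20 UMIs, outside the rules, plus list genes, and some of them are not reported here. The motifs were chosen after seeing the data.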

Additional observations from a re-analysis of the deposited data

How the results depend on the processing

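The smallest sets, both of replicate 1, held 95497 UMIs (other macrophages) and 86310 UMIs (members with Lyve1). Against the other macrophages, the counts of higher and lower genes were 182 and 154. They became 72 and 63 with DESeq2, 57 and 35 at a mitochondrial limit of 5%, 93 and 62 with adipocyte UMIs under 3, 115 and 95 without nuclei holding a dendritic or lymphocyte UMI, and 276 and 241 with all other nuclei in the fit. Thinning to 1000 UMIs gave 83 lower. No filter on low counts, a stricter member threshold and leaving out the top 5% of UMIs stayed within 1.5 times. Without the rule genes in the p adjustment, chosen after seeing the data, they were 181 and 151, and 158 and 137 in the division by Lyve1. Without the replicate block the counts were 33 and 23. All 336 calls kept their direction with DESeq2, and 135 of them remained calls. Direction was kept by every call still tested in the other settings, except 3 of 282 without dendritic or lymphocyte nuclei.

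In the division by Lyve1, 159 and 137 became 72 and 31 with DESeq2, 83 and 90 with no filter, 98 and 47 after thinning, 1 and 7 at the 5% mitochondrial limit, and 82 and 48 with adipocyte UMIs under 3. Leaving out the top 5% of UMIs gave 77 lower. Without the replicate block the counts were 2 and 10, and 12 of 296 calls remained. At the 5% limit 2 of 274 calls changed direction. The 5% limit left 22 members in replicate 1 and the adipocyte limit 56 of 105, so these settings test fewer nuclei. For the other settings the cause was not tested.

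The share of members among all filtered nuclei, 3.69%, became 2.81% at the 5% mitochondrial limit, 2.12% with adipocyte UMIs under 3, 4.03% with at least 1 marker UMI, 3.49% with at least 3, 4.50% with at least 2 macrophage UMIs, 2.92% with at least 4, and 2.27% after thinning before the rules. Without either replicate it was 3.68% to 3.71%. Their share among macrophages stayed within the SD in these settings, and was 70.5% to 87.2% without either replicate. Leaving out a library leaves no residual degrees of freedom for the tests, so only log2 ratios of the remaining library were set against the estimates. Named genes were chosen for the same sign in both libraries. Without replicate 1 or 2, 12 and 27 of their values moved by more than the spread between libraries against the other macrophages, and 22 and 43 in the division by Lyve1. Stab1, for example, ranged from 2.86 to 7.75 and Prg4 from -5.93 to -2.46.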

Other observations

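Proliferation genes summed to 457 and 418 CPM in members, 188 and 406 in the other macrophages and 153 and 200 in all other filtered nuclei. In members 15 and 16 of the 16 genes had UMIs, and Pola1, the catalytic subunit of DNA polymerase alpha, led. In replicate 1 the sum was 174 CPM in members with a Lyve1 UMI and 651 in those without, and in replicate 2 it was 370 and 474. The only gene considered against all other nuclei was not past a log2 ratio of 1 in both libraries. Of 2 genes tested against the other macrophages, 0 were called by edgeR or by DESeq2.

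Inflammatory genes gave 443 and 572 CPM in members and 419 and 901 in the other macrophages, 0 of 3 tested were called by edgeR or by DESeq2, and Tnf and Ptgs2 had 0 UMIs in members of both libraries. Of the B lymphocyte list, Bank1, a signalling scaffold of B cells, was higher in members, at 377 and 624 CPM against 52.4 and 158 (log2 fold change 2.29 ± 0.37, edgeR, adjusted p = 0.00095). Ighm, the IgM heavy chain, was higher in members with a Lyve1 UMI, at 151 and 252 CPM against 79.3 and 98.4. Bank1 lost its call at the 5% mitochondrial limit, and Ighm without a filter on low counts.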
